A study of Ovis aries with 32 samples.

Results

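Subcutaneous fat from the chest and perirenal fat from around the kidney were compared within the same sheep after exposure to excess testosterone before birth. The members were the 8 libraries labelled as testosterone-treated subcutaneous or perirenal adipose tissue, out of 32 libraries in the series, which covered 4 fat depots in each of 8 sheep. Sheep 48, 185, 233 and 255 each gave both depots, so every subcutaneous library had a perirenal partner from the same animal. These sheep were daughters of ewes injected into muscle 2 times a week, between days 30 and 90 of gestation, with 100 mg (1.2 mg/kg) of testosterone propionate in 2 ml of corn oil. The control sheep, numbers 98, 131, 132 and 201, were daughters of ewes in the control group. All 8 sheep, controls included, had their ovaries removed when the second breeding season ended and lived together on a maintenance diet. All then carried a 1 cm estradiol implant, received 2 progesterone implants for 14 days and, after these were taken out, 4 estradiol implants of 30 mm for 18 hours before the fat was collected. The depots were therefore sampled under an imposed steroid background without ovaries, and the sheep serve as a model of polycystic ovary syndrome.

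White fat depots form from different regions of the embryo, and their precursor cells keep a regional pattern of developmental transcription factors into adult life. HOX genes, which lie in clusters named A to D, record position along the head-to-tail axis, while Iroquois, T-box, paired-like and forkhead factors mark territories of skin, body wall and gut. Perirenal fat is the main store of brown fat in the newborn lamb and turns white soon after birth, whereas subcutaneous fat lies under the skin. The comparison asks which genes separate these depots in the exposed sheep, and whether the separation differs from that in control sheep.

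Libraries were made from the 3′ ends of polyadenylated RNA, and levels are given as CPM (counts scaled to the library total) after trimmed-mean scaling over the 16 subcutaneous and perirenal libraries. Values for the 4 testosterone sheep are always in the order 48, 185, 233 and 255. The 8 libraries held 784135 to 8085558 counts. The subcutaneous library of sheep 48 was the smallest, at 784135, and the remaining 7 held at least 3768808. That library also stood apart on the first principal component, at 95.3 against -0.70 to 27.3 for the other testosterone subcutaneous libraries. The spread of within-sheep log2 ratios over all tested genes was 1.23 (SD) in sheep 48 and 0.708 to 0.793 in the other 3 sheep. Counts of called members of a gene list are therefore followed by the counts in 4 further fits, which leave out sheep 48, 185, 233 or 255 and are given in that order. In bulk tissue, fewer cells of a type and less RNA per cell cannot be told apart.

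Both depots carried the RNA of fat cells. ADIPOQ, which encodes adiponectin, stood at 4479, 16520, 12900 and 8289 CPM in subcutaneous and 6103, 8914, 20740 and 7427 CPM in perirenal fat. The groups overlapped, and the gene was not called (log2 fold change 0.02, SE 0.25, edgeR adjusted p = 0.972). PLIN1, the coat protein of lipid droplets, FABP4, LIPE, CIDEC and LEP were also not called, at log2 differences of 0.03, -0.15, 0.07, 0.36 and -0.98. None of the 12 tested adipocyte markers was called, and their median log2 difference was 0.03; leaving out 1 sheep gave 1, 0, 0 and 0 higher and 0, 2, 0 and 0 lower. For 6 markers of other tissues that were near 0 in all 8 libraries, the highest values were 0.163 CPM for the mesothelial gene MSLN, 0.678 CPM for UPK3B, 0.652 CPM for skeletal actin ACTA1, 1.30 CPM for the muscle gene MYLPF, 0.285 CPM for the kidney gene LRP2 and 0.752 CPM for the steroidogenic gene STAR. Other members of the same lists were not near 0: the mesothelial list, with WT1 and EFEMP1, summed to 353 to 593 CPM in perirenal fat, and the skeletal muscle list, with NEB, summed to 53.1 to 568 CPM in subcutaneous fat. The kidney list summed to 4.31 to 17.1 CPM in subcutaneous and 3.42 to 6.84 CPM in perirenal fat, with overlap. The adrenal list was low but did not overlap, at 0 to 1.27 CPM against 1.90 to 5.27 CPM. In control sheep the adrenal sums were 0.219 to 2.07 CPM against 2.58 to 5.145 CPM.

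Of 12648 genes tested in the testosterone sheep, 938 (7.42%) differed between the depots at a Benjamini-Hochberg adjusted p under 0.05 in edgeR's quasi-likelihood test with the sheep as a block. Of these, 490 (3.87% of the genes tested) were higher and 448 (3.54%) lower in subcutaneous fat. The difference exceeded 2-fold in 357 of the higher and 270 of the lower genes, and 8-fold in 21 and 33. The median absolute log2 difference was 1.22 over the called genes and 0.344 over all genes tested. In 920 of the 938 called genes all 4 pairs differed in the same direction, and in 627 the depots did not overlap. The calls come from these same pairs, so this agreement is largely set by the selection. Over all genes tested, 12.9% did not overlap (5.54% higher and 7.35% lower in subcutaneous fat). Without sheep 48, 590 of 12876 genes (4.58%) were called, 274 higher and 316 lower, and 504 of the 938 genes were called again. All 937 of the called genes that could be tested without sheep 48 kept their direction. That fit reuses the other pairs that gave the calls, so it is not an independent check. Leaving out sheep 185, 233 or 255 left 372, 367 and 321 calls, and 174 genes stayed called whichever sheep was left out. Every called gene named below differed in the stated direction in 4 of 4 pairs unless stated otherwise.

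Developmental transcription factors made up the largest differences. TBX15, a T-box factor of skin and skeletal development, stood at 23.4, 35.5, 23.8 and 34.2 CPM in subcutaneous and 0, 0, 0.142 and 0 CPM in perirenal fat. Only 1 perirenal count was found in the 4 libraries, against 510 subcutaneous counts, a ratio of 740.3 with a 95% interval for counting error of 132 to 29300 (edgeR adjusted p = 5.81e-06). The gene was at or near 0 in every perirenal library, and each of the 4 subcutaneous libraries was above 20 CPM.

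The Iroquois homeobox genes IRX1, IRX2 and IRX5 were also higher in subcutaneous fat, and IRX3 was not called (log2 difference 0.11, higher in 1 of 4 pairs). IRX1 stood at 36.4, 11.4, 26.3 and 8.82 CPM in subcutaneous and 0, 0.163, 0.285 and 0.271 CPM in perirenal fat (log2 fold change 6.38, SE 0.52, edgeR adjusted p = 6.95e-05). IRX2 stood at 33.8, 12.2, 44.6 and 17.99 CPM and 0.238, 0.652, 0.427 and 1.36 CPM (log2 fold change 5.11, SE 0.50, edgeR adjusted p = 0.000331). Every subcutaneous value exceeded every perirenal value for both genes. IRX5 differed less, at 11.7, 18.8, 18.04 and 20.3 CPM against 8.33, 3.26, 1.43 and 3.66 CPM, again with no overlap (log2 fold change 2.38, SE 0.41, edgeR adjusted p = 0.00828; 0.0548 without sheep 255). Of 9 tested Iroquois and T-box genes, 4 were higher and 0 lower; leaving out 1 sheep gave 4, 4, 4 and 3 higher and 1, 0, 0 and 0 lower. The lower call was TBX18. TBX3 and TBX18 had log2 differences of 0.67 and -0.68 and were not called with all 4 sheep.

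**Figure D1:**
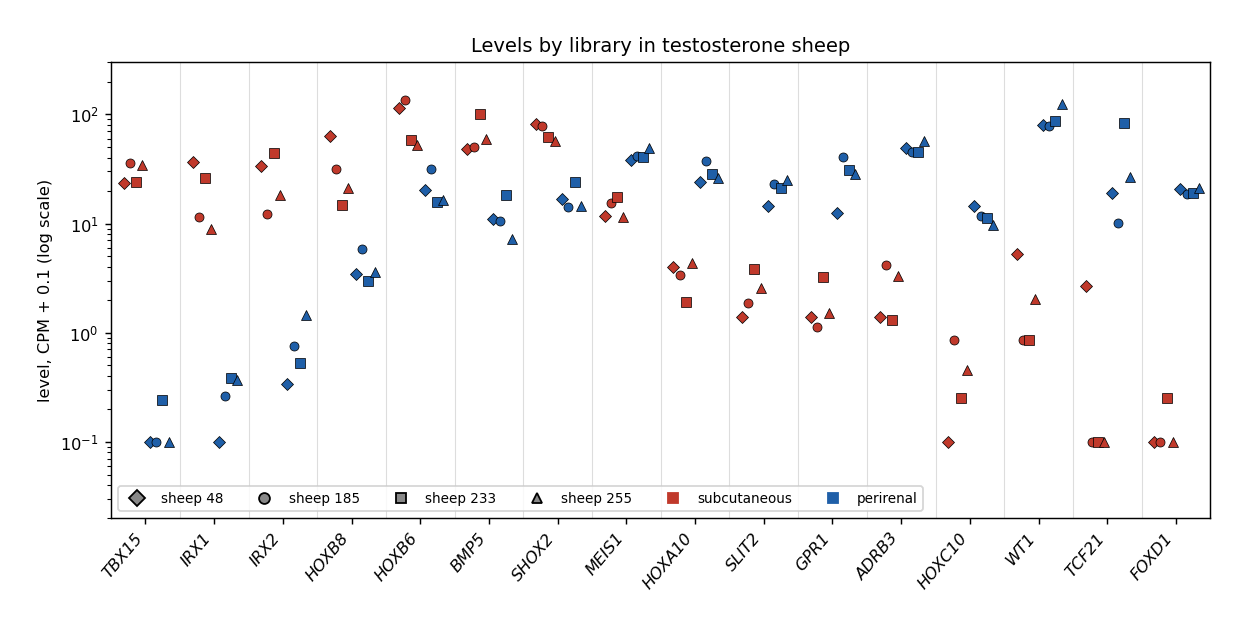
Levels of 16 genes in each of the 8 libraries of the testosterone sheep, as CPM + 0.1 on a log axis; colour marks the depot and the symbol marks the sheep. The genes on the left are higher in subcutaneous fat and those on the right in perirenal fat, and for none of the 16 do the depots overlap.

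SHOX2, a short-stature homeobox factor of limb development, was 81.9, 78.1, 62.2 and 56.4 CPM in subcutaneous and 16.6, 14.02, 23.8 and 14.4 CPM in perirenal fat. The lowest subcutaneous library lay more than 2-fold above the highest perirenal one (log2 fold change 2.06, SE 0.24, edgeR adjusted p = 0.000702). EYA1, a transcriptional cofactor with phosphatase activity, ZFHX4 and PRRX2 were also higher, by 2.29, 1.19 and 1.10 on the log2 scale. They stayed called in 3, 2 and 1 of the 4 fits without a sheep (edgeR adjusted p up to 0.059 without sheep 185, 0.0907 without sheep 255 and 0.103 without sheep 233).

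In the opposite direction, TCF21, a basic helix-loop-helix factor of visceral mesenchyme and kidney, stood at 2.6, 0, 0 and 0 CPM in subcutaneous and 18.8, 9.95, 83.6 and 26.4 CPM in perirenal fat. The subcutaneous value of sheep 48 was made of 2 counts, and the other 3 subcutaneous libraries had none. Perirenal fat held 922 counts, a ratio of 318 (95% interval 87.7 to 2626; edgeR adjusted p = 0.00112). FOXD1, a forkhead factor of the kidney stroma, was 0, 0, 0.150 and 0 CPM in subcutaneous and 20.7, 18.4, 19.1 and 20.9 CPM in perirenal fat. Its perirenal values lay within a narrow range, and 488 perirenal counts stood against 1 subcutaneous count, a ratio of 336 (95% interval 60.1 to 13310; edgeR adjusted p = 2.04e-05). WT1, the Wilms tumour factor of visceral fat precursors, kidney and mesothelium, was 5.2, 0.761, 0.752 and 1.94 CPM against 79.9, 77.9, 87.8 and 126 CPM (log2 fold change -6.03, SE 0.38, edgeR adjusted p = 1.17e-05). Each of the 4 perirenal values was more than 8-fold above the highest subcutaneous one.

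Of 29 tested genes in the list of other regional regulators, which holds SHOX2, TCF21, FOXD1 and WT1, 5 were higher and 7 lower in subcutaneous fat; leaving out 1 sheep gave 5, 3, 4 and 4 higher and 6, 5, 5 and 6 lower. MEIS1, a partner of HOX proteins, was 11.7, 15.5, 17.4 and 11.3 CPM in subcutaneous and 38.1, 41.1, 40.6 and 48.96 CPM in perirenal fat (log2 fold change -1.56, SE 0.23, edgeR adjusted p = 0.00375). DMRT2, a factor of the somite-derived body wall, was 13, 52.7, 35.2 and 21.2 CPM against 95.6, 144, 81.1 and 109 CPM (log2 fold change -1.82, SE 0.26, edgeR adjusted p = 0.00283). Neither gene overlapped between the depots. MEIS2 and NR2F1 were lower by smaller amounts, with log2 differences of -0.89 and -0.70. They stayed called in 1 and 0 of the 4 fits without a sheep (edgeR adjusted p up to 0.132 without sheep 233 and 0.237 without sheep 185). LHX8, a LIM homeobox factor linked to brown fat in mice, did not reach the count filter. It was at 0 in all 4 subcutaneous libraries and at 3.81, 8.15, 9.54 and 1.08 CPM in perirenal fat, at least 32.4-fold lower in subcutaneous fat against the limit of 3 counts over the group. ALX1, a paired-like factor of craniofacial mesenchyme picked after its values were seen, was likewise at 0 in the 4 subcutaneous libraries and at 9.04, 5.71, 8.97 and 6.37 CPM in perirenal fat, at least 42.02-fold lower (edgeR adjusted p = 0.00194).

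HOX genes differed by cluster and position rather than as 1 group. In the HOXB cluster, 4 of 6 tested genes were higher in subcutaneous fat and none was lower. HOXB8 stood at 63.7, 31.7, 14.6 and 20.99 CPM in subcutaneous and 3.33, 5.71, 2.85 and 3.53 CPM in perirenal fat (log2 fold change 2.89, SE 0.34, edgeR adjusted p = 0.000745). HOXB6 was 114, 135, 58.03 and 52.7 CPM against 19.98, 31.3, 15.5 and 16.3 CPM (log2 fold change 2.08, SE 0.21, edgeR adjusted p = 0.000331). For both genes the depots did not overlap, and sheep 48 and 185 had the 2 highest subcutaneous values. HOXB5 and HOXB7 were higher by 1.61 and 1.14. They stayed called in 1 and 3 of the 4 fits without a sheep (edgeR adjusted p up to 0.137 without sheep 185 and 0.0659 without sheep 185). For the HOXB genes, leaving out 1 sheep gave 3, 2, 3 and 4 higher.

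The most caudal tested members of the A and C clusters went the opposite way. HOXA10 was 3.9, 3.296, 1.804 and 4.23 CPM in subcutaneous and 23.8, 37.3, 28.2 and 25.9 CPM in perirenal fat (log2 fold change -3.20, SE 0.32, edgeR adjusted p = 0.000265). HOXC10 was 0, 0.761, 0.150 and 0.353 CPM against 14.5, 11.6, 11.2 and 9.63 CPM (log2 fold change -4.84, SE 0.50, edgeR adjusted p = 0.000331). Neither overlapped between the depots. HOXC6, HOXC8, HOXC9 and HOXA9, their neighbours in the clusters, had log2 differences of -0.24, 0.31, -0.28 and -0.60 and were not called. HOXA9 was 111.8, 34.7, 20.8 and 32.6 CPM in subcutaneous and 52.6, 70.1, 57.7 and 63.9 CPM in perirenal fat. Apart from the subcutaneous library of sheep 48, every subcutaneous value of HOXA9 was below every perirenal value. HOXC8 illustrates the library of sheep 48: it was at 218, 81.4, 58.6 and 49.9 CPM in subcutaneous fat, highest in sheep 48, and at 64.95, 101, 64.5 and 52.8 CPM in perirenal fat. HOXA10 was the 1 call among 8 tested HOXA genes with all sheep, against 2 lower without sheep 48. HOXC10 was the 1 call among 6 HOXC genes, and none of 3 HOXD genes was called.

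**Figure D2:**
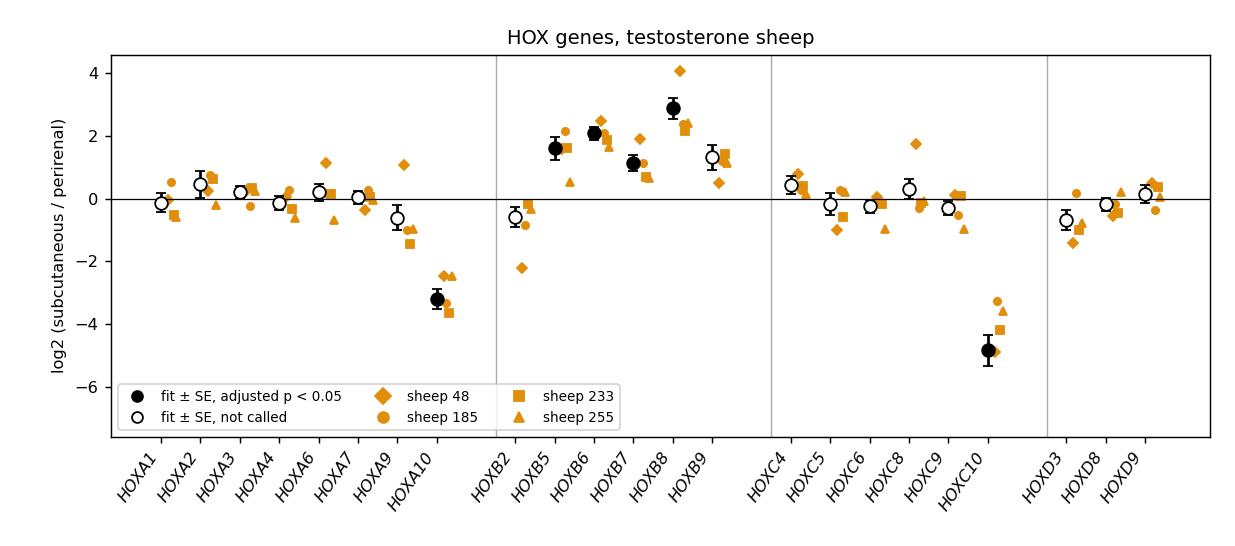
Log2 ratio of subcutaneous to perirenal fat for the 23 tested HOX genes in the testosterone sheep, grouped by cluster. Black points are the fitted differences ± SE, filled where the adjusted p is under 0.05, and small symbols are the ratios within each sheep (with 0.5 CPM added); HOXB5 to HOXB8 lie above 0, and HOXA10 and HOXC10 lie below it.

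Receptors that start fat breakdown were lower in subcutaneous fat. ADRB3, the beta-3 adrenergic receptor, was 1.3, 4.06, 1.203 and 3.17 CPM in subcutaneous and 48.8, 45, 45.2 and 56.96 CPM in perirenal fat. The perirenal values were even over the 4 sheep, and the depots did not overlap (log2 fold change -4.26, SE 0.33, edgeR adjusted p = 3.99e-05). ADRB1, the beta-1 receptor, was 54.6, 61.9, 30.97 and 58.7 CPM against 109, 158, 64.2 and 129 CPM. The depots did not overlap (log2 fold change -1.10, SE 0.18, edgeR adjusted p = 0.00618). These were the 2 calls among 23 tested genes of lipolysis and its receptors, whose median log2 difference was 0.11; leaving out 1 sheep gave 1, 0, 0 and 0 higher and 2 lower each time.

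Of enzymes and carriers that fill the fat cell, 2 of 16 for fatty acid uptake and 1 of 23 for lipogenesis were lower. Over all genes tested 3.54% were lower. LPL, the lipase that frees fatty acids from circulating lipoproteins, was 330.2, 1658, 879 and 1378 CPM in subcutaneous and 3669, 2919, 4643 and 3995 CPM in perirenal fat. It was lowest in the subcutaneous library of sheep 48, and the depots did not overlap (log2 fold change -1.999, SE 0.38, edgeR adjusted p = 0.0203; 0.0773 without sheep 233). LPL was 1 of 2 lower calls among 16 tested genes of fatty acid uptake; leaving out 1 sheep gave 1, 2, 0 and 1 lower. DGAT1, which completes triglyceride synthesis, was lower by -1.80 (log2 fold change) and was the 1 call among 23 lipogenic enzymes; leaving out 1 sheep gave 0, 0, 1 and 0 higher and 0, 2, 0 and 0 lower. Fatty acid oxidation gave 2 lower calls of 21, ETFDH (log2 difference -1.18) and EHHADH (-0.77); leaving out 1 sheep gave 1, 2, 0 and 0 lower. None of 23 insulin signalling genes was called, with a median log2 difference of -0.08.

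Brown fat genes did not separate the depots as a group. UCP1, the uncoupling protein of brown fat, was at 0 in the 4 subcutaneous libraries and at 0, 0.489, 0.285 and 0 CPM in perirenal fat. CIDEA, a lipid droplet protein that is abundant in brown fat, was 118, 82.7, 194 and 154 CPM in subcutaneous and 68.99, 36.8, 133 and 42.04 CPM in perirenal fat. Within each sheep it was higher in subcutaneous fat, although the depots overlapped (log2 fold change 1.13, SE 0.23, edgeR adjusted p = 0.015; 0.0692 without sheep 255). CIDEA was the 1 call among 10 tested brown and beige fat genes; leaving out 1 sheep gave 1, 0, 1 and 0 higher.

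Secreted factors and their receptors were called in both directions. C1QTNF9, an adiponectin-like secreted protein, was 6.501, 1.27, 3.01 and 0.882 CPM in subcutaneous and 15.5, 21.9, 11.2 and 14.2 CPM in perirenal fat, with no overlap (log2 fold change -2.77, SE 0.47, edgeR adjusted p = 0.00773; 0.0502 without sheep 255). ANGPTL4, an inhibitor of LPL, was higher by 1.31 (log2 fold change, adjusted p up to 0.203 without sheep 185). These were the called members of 17 tested adipokines; leaving out 1 sheep gave 1, 0, 0 and 0 higher and 1, 2, 1 and 0 lower. GPR1, a receptor of the adipokine chemerin, was 1.3, 1.01, 3.16 and 1.41 CPM in subcutaneous and 12.4, 40.3, 30.9 and 28.5 CPM in perirenal fat. Each perirenal value was more than 2-fold above the highest subcutaneous one (log2 fold change -4.04, SE 0.37, edgeR adjusted p = 0.000167). IGF1, a growth factor made by fat and liver, was 276, 94.3, 103 and 184 CPM against 475, 447, 666 and 886 CPM, with no overlap (log2 fold change -1.98, SE 0.30, edgeR adjusted p = 0.0058). IGF2, its imprinted relative, was at 1396, 770.2, 515 and 1244 CPM against 574, 543, 419.5 and 572 CPM. IGF2 was higher in subcutaneous fat within each sheep, but the depots overlapped and the call was lost in each of the 4 fits without a sheep (log2 fold change 0.84, SE 0.22, edgeR adjusted p = 0.0395; up to 0.151 without sheep 255).

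Among morphogens, BMP5, a bone morphogenetic protein, was 48.1, 50.7, 102 and 59.1 CPM in subcutaneous and 10.9, 10.4, 18.1 and 7.05 CPM in perirenal fat, with no overlap (log2 fold change 2.54, SE 0.23, edgeR adjusted p = 0.000149). BMP2 was 16.9, 36.8, 29.8 and 45.9 CPM against 9.28, 12.6, 10.5 and 7.19 CPM, also with no overlap (log2 fold change 1.75, SE 0.29, edgeR adjusted p = 0.0058). These ligands were the 2 higher calls among 29 tested genes of the TGF-beta and BMP pathway. The 4 lower calls included LTBP1, which stores TGF-beta in the matrix, the co-receptor TGFBR3 and the binding protein FSTL1, at -1.32, -0.99 and -1.07. In this pathway leaving out 1 sheep gave 2 higher each time and 3, 1, 2 and 0 lower. In the Wnt pathway 1 of 23 tested genes was higher, the transcription factor TCF7, and 3 were lower, the antagonist DKK3, the receptor FZD1 and the ligand WNT2B. Their log2 differences were 0.90, -1.94, -1.83 and -1.55, and WNT2B was lower in 3 of 4 pairs. TCF7, DKK3, FZD1 and WNT2B stayed called in 0, 3, 2 and 1 of the 4 fits without a sheep. Over the whole Wnt list, leaving out 1 sheep gave 0, 1, 0 and 1 higher and 4, 1, 2 and 0 lower. DACT2, an inhibitor of Wnt and TGF-beta signalling that is outside the list, was 3.9, 0.254, 1.05 and 1.59 CPM against 4.52, 22.01, 8.69 and 29.97 CPM (log2 fold change -3.73, SE 0.62, edgeR adjusted p = 0.00863; 0.0624 without sheep 255).

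Retinoid synthesis was represented by lower calls. ALDH1A3, an enzyme that makes retinoic acid, was 11.7, 8.37, 17.6 and 17.5 CPM in subcutaneous and 23.1, 103, 102 and 65.8 CPM in perirenal fat, with no overlap (log2 fold change -2.38, SE 0.35, edgeR adjusted p = 0.0049). The related enzymes ALDH1A1 and ALDH1A2 had log2 differences of -0.88 and -1.64, and the retinoic acid carrier CRABP2 and the receptor RXRA had 2.62 and 0.75. Together these were 2 higher and 3 lower calls of 16; leaving out 1 sheep gave 0, 0, 0 and 2 higher and 1, 1, 2 and 1 lower. SLIT2, a secreted guidance cue, was 1.3, 1.77, 3.76 and 2.47 CPM in subcutaneous and 14.5, 23.1, 21.1 and 24.9 CPM in perirenal fat (log2 fold change -3.09, SE 0.32, edgeR adjusted p = 0.000331). The highest subcutaneous value, in sheep 233, was more than 2-fold under the lowest perirenal value. SLIT2 was 1 of 4 lower calls among 31 guidance genes, with 1 higher; leaving out 1 sheep gave 0, 0, 0 and 1 higher and 1, 1, 2 and 1 lower. VEGFD, a growth factor for lymphatic vessels, was 7.801, 13.2, 13.2 and 7.41 CPM against 25.9, 51.2, 66.2 and 49.4 CPM, with no overlap (log2 fold change -2.23, SE 0.25, edgeR adjusted p = 0.000511).

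Elastic fibre and small proteoglycan genes were lower in subcutaneous fat. Of 25 tested members, 10 were lower and none higher, and the median log2 difference was -0.88 against -0.02 over all genes tested. For this list leaving out 1 sheep gave 8, 5, 4 and 6 lower. In control sheep 3 of 25 were higher and 7 lower, with a median of -0.31. Of all genes tested there, 10.3% were higher and 11.5% lower. EFEMP1, which encodes fibulin-3, was 35.1, 135, 86.6 and 79.02 CPM in subcutaneous and 226, 407, 461 and 333 CPM in perirenal fat, with no overlap (log2 fold change -2.12, SE 0.21, edgeR adjusted p = 0.000303). FBLN5, fibulin-5, was 16.9, 15.7, 35.6 and 24.9 CPM against 66.8, 69.6, 66.7 and 96.3 CPM, also with no overlap (log2 fold change -1.68, SE 0.24, edgeR adjusted p = 0.00337). MFAP5, a microfibril glycoprotein, was 33.8, 65.9, 137 and 45.7 CPM against 69.9, 440, 339.5 and 232 CPM. Sheep 48 had the lowest value in both depots, and the depots overlapped, but MFAP5 was lower in subcutaneous fat within each sheep (log2 fold change -1.88, SE 0.29, edgeR adjusted p = 0.00517).

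Collagens were called in both directions. Of 18 tested fibrillar and other collagens, 2 were higher and 1 lower, with a median log2 difference of -0.07; leaving out 1 sheep gave 1 higher each time and 1, 0, 0 and 0 lower. COL5A3 was 317, 347, 99.5 and 120.3 CPM in subcutaneous and 138, 134, 47.01 and 63.3 CPM in perirenal fat, higher within each sheep although the depots overlapped (log2 fold change 1.19, SE 0.18, edgeR adjusted p = 0.00392). COL4A1 and COL4A2, the chains of basement membrane collagen, were higher by 0.78 and 0.74, and LAMA2, a laminin chain, was lower by -0.92 on the log2 scale. Each of these genes stayed called in 1 of the 4 fits without a sheep. These were the calls among 15 basement membrane genes; leaving out 1 sheep gave 2, 0, 0 and 0 higher and 1, 0, 0 and 0 lower. Among 28 matrix remodelling genes, 2 were higher and 2 lower; leaving out 1 sheep gave 2, 2, 1 and 1 higher and 4, 2, 3 and 2 lower. MMP16, a membrane-bound metalloproteinase, was 24.7, 16.5, 35.5 and 23.6 CPM against 54.5, 71.1, 113 and 63.3 CPM (log2 fold change -1.58, SE 0.22, edgeR adjusted p = 0.00253). ADAMTS12, a secreted protease, was 55.9, 24.3, 17.6 and 12.3 CPM against 7.61, 5.38, 6.84 and 6.24 CPM (log2 fold change 1.85, SE 0.33, edgeR adjusted p = 0.00805). Neither overlapped between the depots.

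Markers of fat precursors and fibroblasts gave 1 higher and 5 lower calls of 21 tested; leaving out 1 sheep gave 1, 0, 1 and 0 higher and 4, 2, 2 and 2 lower. PCOLCE2, an enhancer of procollagen processing, was 46.8, 100.1, 53.5 and 62.3 CPM in subcutaneous and 112, 432, 357 and 338 CPM in perirenal fat, with no overlap (log2 fold change -2.15, SE 0.25, edgeR adjusted p = 0.000745). PI16, a marker of an early progenitor population, was 9.101, 3.04, 12.9 and 5.29 CPM against 27.6, 414, 123 and 162 CPM. The perirenal libraries ranged over more than 8-fold, and the call was lost in the fits without sheep 48 and 233 (log2 fold change -4.47, SE 0.86, edgeR adjusted p = 0.0427; 0.0627 without sheep 233). BMPER and MGP, which bind bone morphogenetic proteins, and the surface marker THY1 had log2 differences of 1.43, -1.20 and -1.65. THY1 was lower in 3 of 4 pairs. BMPER, MGP and THY1 stayed called in 2, 1 and 1 of the 4 fits without a sheep. The summed level of the list was 2126, 3027, 2809 and 1751 CPM in subcutaneous and 2947, 4338, 3635 and 4431 CPM in perirenal fat, and the depots overlapped. DLK1, a preadipocyte protein and imprinted gene picked after its values were seen, did not reach the count filter. It was at 0 in all 4 subcutaneous libraries and at 0.238, 9.95, 46.7 and 22.4 CPM in perirenal fat, at least 127-fold lower in subcutaneous fat against the limit of 3 counts over the group.

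**Figure D3:**
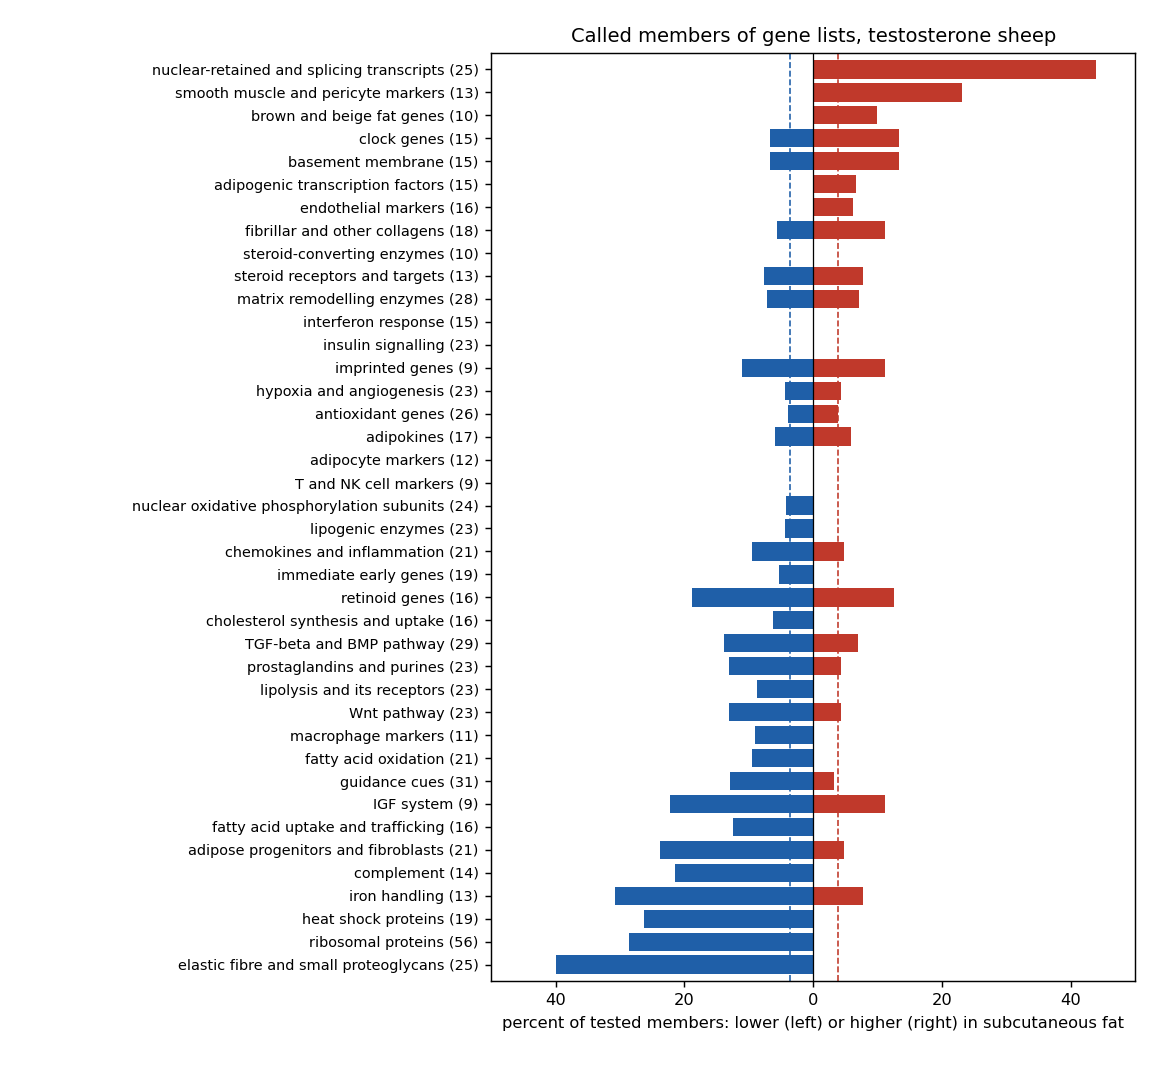
Share of the tested members of each gene list that was called lower (left) or higher (right) in subcutaneous fat of the testosterone sheep, with the number of tested members in parentheses. Lists of position genes and lists with fewer than 9 tested members are left out; the broken lines mark the shares over all genes tested, 3.54% lower and 3.87% higher.

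Some complement genes, 1 macrophage marker and the neutrophil gene S100A8 were lower in subcutaneous fat, where 3.54% of all genes tested were lower. C1QC, a complement component made by macrophages, was 50.7, 132, 118 and 98.1 CPM in subcutaneous and 265, 221, 233 and 368 CPM in perirenal fat, with no overlap (log2 fold change -1.42, SE 0.26, edgeR adjusted p = 0.0101; 0.0713 without sheep 255). It was the 1 call among 11 tested macrophage markers, whose sum was 703, 1019, 1157 and 879 CPM in subcutaneous and 1395, 1228, 1333 and 1935 CPM in perirenal fat, with no overlap; leaving out 1 sheep gave 1, 1, 2 and 0 lower. C1S, a protease of the classical complement pathway, was 75.4, 185, 189 and 95.8 CPM against 235, 349, 426 and 402 CPM, with no overlap (log2 fold change -1.40, SE 0.22, edgeR adjusted p = 0.00471). With C1R and C7, at log2 differences of -0.87 and -1.75, it made 3 lower calls of 14 complement genes; leaving out 1 sheep gave 2, 2, 1 and 1 lower. S100A8, a protein of neutrophils, was 1.3, 1.01, 2.41 and 0.529 CPM against 8.09, 7.99, 10.8 and 13.2 CPM (log2 fold change -2.98, SE 0.46, edgeR adjusted p = 0.00426). None of 15 interferon response genes and none of 9 T and NK cell markers was called. The median log2 difference was -0.0006 for the interferon genes and -0.955 for the T and NK cell markers. In control sheep 3 of 15 and 5 of 6 tested members were lower, where 11.5% of all genes tested were lower. CXCL14, a chemokine of skin and fat, was the 1 higher call among 21 chemokine and inflammation genes, at 9.101, 10.1, 5.56 and 2.47 CPM against 0, 0.489, 0.427 and 0.407 CPM, with no overlap (log2 fold change 3.999, SE 0.61, edgeR adjusted p = 0.00399). In that list 2 were lower; leaving out 1 sheep gave 1 higher each time and 1, 0, 2 and 0 lower.

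CDH19, a cadherin of Schwann cells, was 2.6, 3.04, 2.41 and 2.12 CPM in subcutaneous and 12.1, 15.2, 12.1 and 13.8 CPM in perirenal fat (log2 fold change -2.39, SE 0.32, edgeR adjusted p = 0.00186). The depots did not overlap. For the Schwann cell list, leaving out 1 sheep gave 3, 2, 2 and 2 lower. CDH19 was 1 of 3 lower calls among 6 tested Schwann cell and neuron markers, whose sums overlapped, at 237, 554, 584 and 526 CPM in subcutaneous and 458, 464, 988 and 316 CPM in perirenal fat. The mesothelial list gave 3 lower calls of 4 tested, WT1, EFEMP1 and ALDH1A2, described above, while MSLN and UPK3B were near 0 in both depots; leaving out 1 sheep gave 2, 2, 3 and 2 lower. Its sum was 53.3, 147, 117 and 94.4 CPM in subcutaneous and 353, 538, 593 and 489.7 CPM in perirenal fat, with no overlap. Most of this sum came from the 3 called genes, so it restates their calls. In the perirenal library of sheep 48, EFEMP1 gave 226, WT1 79.9 and ALDH1A2 42.8 of the 353 CPM. The part of mesothelial or nerve cells in these differences was not tested.

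Ion channel, neuronal and cytoskeletal genes were among the remaining large differences. MAP1A, a microtubule-associated protein, was 351, 238, 53.97 and 88.01 CPM in subcutaneous and 28.6, 23.97, 6.13 and 12.6 CPM in perirenal fat. The values varied over the sheep in both depots, in the same order, and did not overlap (log2 fold change 3.26, SE 0.22, edgeR adjusted p = 1.17e-05). LGI1, a secreted synaptic protein, was 29.9, 9.13, 63 and 83.6 CPM against 3.33, 0.978, 4.27 and 2.58 CPM (log2 fold change 3.997, SE 0.33, edgeR adjusted p = 8.41e-05). GRIA3, a glutamate receptor subunit, was 32.5, 16.5, 11.9 and 21.5 CPM against 8.09, 0.815, 0.427 and 5.56 CPM (log2 fold change 2.94, SE 0.45, edgeR adjusted p = 0.00517). NALCN, a sodium leak channel, went the opposite way, at 1.3, 0.254, 2.86 and 0.529 CPM against 25.2, 16.8, 28.8 and 23.9 CPM (log2 fold change -4.30, SE 0.42, edgeR adjusted p = 0.000259). None of these genes overlapped between the depots. CCN3, a matricellular protein, is represented by 2 rows of the table, between which reads may have been split: CCN3_1 was 55.9, 22.8, 6.46 and 12.3 CPM against 4.28, 2.93, 0.427 and 1.63 CPM (log2 fold change 3.33, SE 0.32, edgeR adjusted p = 0.000257), and CCN3 was 161, 927, 514 and 469 CPM against 136, 307, 67.7 and 51.3 CPM (log2 fold change 2.07, SE 0.47, edgeR adjusted p = 0.0417; 0.121 without sheep 233).

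A few metal, oxidant and stress genes were called. TF, the iron carrier transferrin, was 14.3, 20.5, 40.3 and 18.2 CPM in subcutaneous and 71.4, 61.5, 116 and 61.8 CPM in perirenal fat, with no overlap (log2 fold change -1.71, SE 0.21, edgeR adjusted p = 0.000906). Of 13 iron handling genes, 1 was higher and 4 were lower; leaving out 1 sheep gave 0 higher each time and 2, 2, 2 and 1 lower. SOD3, the extracellular superoxide dismutase, was 58.5, 137, 94.6 and 46.9 CPM against 31.9, 42.7, 38.8 and 13.2 CPM, with no overlap (log2 fold change 1.48, SE 0.21, edgeR adjusted p = 0.00278). It was the 1 higher call among 26 antioxidant genes, and 1 was lower; leaving out 1 sheep gave 1 higher each time and 0, 0, 1 and 0 lower. CRYAB, a small heat shock protein, was 9.101, 27.6, 12.6 and 2.998 CPM against 43.8, 116, 35.3 and 56.96 CPM, with no overlap (log2 fold change -2.39, SE 0.40, edgeR adjusted p = 0.00897; 0.0503 without sheep 48). Heat shock proteins gave 5 lower calls of 19; leaving out 1 sheep gave 4, 1, 1 and 1 lower. Of 15 clock genes, PER1 and TEF were higher by 1.14 and 0.99, and NFIL3 was lower by -1.02 on the log2 scale; leaving out 1 sheep gave 2, 1, 0 and 1 higher and 0 lower each time.

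Steroid receptors and steroid targets gave 1 higher and 1 lower call of 13, where 3.87% of all genes tested were higher and 3.54% lower. In control sheep 5 of 13 were higher and 0 lower, where 10.3% of all genes tested were higher. ESR1, the estrogen receptor, was 49.4, 23.6, 43.6 and 41.1 CPM in subcutaneous and 52.3, 79.4, 138 and 37.97 CPM in perirenal fat and was not called (log2 fold change -0.84, SE 0.34, edgeR adjusted p = 0.161). PGR, the progesterone receptor, and NR3C1, the glucocorticoid receptor, had log2 differences of -0.31 and 0.18 and were not called. Of 13 tested steroid receptors and targets, GPER1, a membrane estrogen receptor, was higher (1.90) and CRISPLD2, a glucocorticoid-induced gene, lower (-0.96). They stayed called in 0 and 1 of the 4 fits without a sheep (edgeR adjusted p up to 0.14 without sheep 233 and 0.184 without sheep 255). None of 10 tested steroid-converting enzymes was called.

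Genes that report on RNA handling also differed, and the library of sheep 48 was extreme among them. Nuclear-retained and splicing transcripts gave 11 higher and no lower calls of 25 tested; leaving out 1 sheep gave 8, 4, 3 and 5 higher. Their sum was 66820, 15420, 11020 and 15780 CPM in subcutaneous and 11030, 8259, 7667 and 9580 CPM in perirenal fat. The sum in the subcutaneous library of sheep 48 was more than 4-fold above that in any of the other 7 libraries. In control sheep 16 of 25 members of this list were higher and 0 lower, where 10.3% of all genes tested were higher. ARGLU1, a splicing cofactor, was 25410, 2284, 1446 and 2076 CPM against 778, 424, 241 and 540.3 CPM (log2 fold change 2.97, SE 0.53, edgeR adjusted p = 0.0244; 0.000324 without sheep 48 and 0.0877 without sheep 185). LMOD1, a smooth muscle actin nucleator, was 135, 7.86, 10.98 and 8.64 CPM against 2.38, 2.44, 1.57 and 2.58 CPM (log2 fold change 3.04, SE 0.69, edgeR adjusted p = 0.0422; 0.12 without sheep 233). NEB, the muscle protein nebulin, was 499, 157, 47.4 and 154 CPM against 39.2, 39.1, 15.96 and 36.9 CPM (log2 fold change 2.35, SE 0.33, edgeR adjusted p = 0.00417), while ACTA1 and MYLPF, defining genes of skeletal muscle, were near 0. All 3 genes were highest in the subcutaneous library of sheep 48. In control sheep ARGLU1 and NEB were also called higher, at log2 differences of 1.47 and 1.83, and LMOD1 was not called, at -0.02.

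Ribosomal protein genes were lower in subcutaneous fat: 16 of 56 tested were called, all lower, with a median log2 difference of -0.54. For this list leaving out 1 sheep gave 10, 4, 2 and 2 lower. Their sum was 42490, 46150, 65990 and 51850 CPM in subcutaneous and 76230, 62860, 98450 and 70330 CPM in perirenal fat. The sums overlapped between depots, and the subcutaneous sum was lower within each sheep. Among the called genes, RPS9 and RPL19 had log2 differences of -1.15 and -1.10. In control sheep 51 of 56 ribosomal protein genes were lower, where 11.5% of all genes tested were lower, and their median was -0.73. The control sums were 35850 to 53280 CPM in subcutaneous and 76110 to 88800 CPM in perirenal fat, with no overlap. What part RNA quality has in the differences of other genes was not tested.

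The same depots were compared in the control sheep, which share no library with the testosterone sheep. In controls 2707 of 12402 genes (21.8%) were called, 1279 higher (10.3%) and 1428 lower (11.5%) in subcutaneous fat. Over the 12225 genes tested in both groups, 633 were called in both, which is 70.3% of the 901 testosterone calls and 23.8% of the 2664 control calls. Of the 633, 631 had the same direction. Of the 901 testosterone calls, 872 (96.8%) had the same sign in controls, against 75.9% of all genes tested in both. Across genes, which are not independent replicates, the log2 differences had a Pearson correlation of 0.748 and a Spearman correlation of 0.691. The median SE of the log2 difference was 0.253 in testosterone and 0.202 in control sheep. The number of control calls also moved with single sheep, to 1195 without sheep 98 and 1612 without sheep 131.

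**Figure D4:**
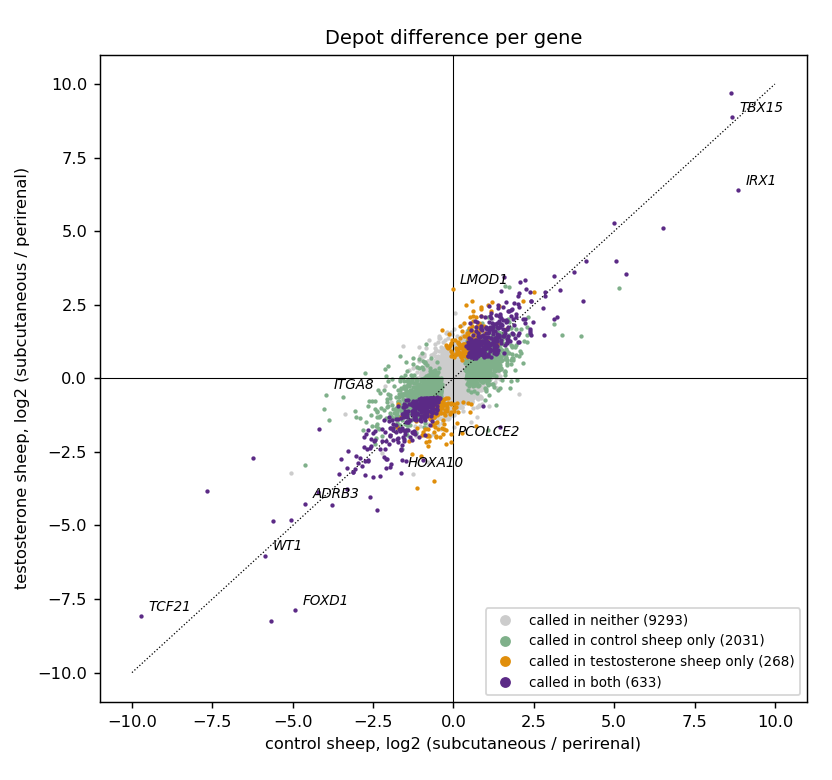
Log2 difference between subcutaneous and perirenal fat for each of the 12225 genes tested in both groups, control sheep on the x axis and testosterone sheep on the y axis; the dotted line marks equal differences. Of the 633 genes called in both groups, 631 have the same sign; fitted differences of genes at or near 0 counts in a depot depend on the fit's prior count, and a call in a single group does not show that the groups differ.

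Several of the regional factors described above also separated the depots in controls, whose values are given for sheep 98, 131, 132 and 201. TBX15 was 19.2, 15.5, 41.8 and 14.8 CPM in subcutaneous and 0.148, 0, 0 and 0 CPM in perirenal fat of controls. IRX1 was 34.96, 32.05, 20.8 and 21.7 CPM against 0, 0, 0.127 and 0 CPM, and HOXC10 was 0.469, 0.259, 0 and 0 CPM against 6.66, 11.7, 7.63 and 12.3 CPM. TCF21 was at 0, 0, 0 and 0 CPM in subcutaneous and 20.6, 10.3, 18.96 and 24.04 CPM in perirenal fat. Log2 differences in controls were 6.52 for IRX2, -5.86 for WT1, -4.62 for ADRB3, -2.46 for EFEMP1 and -3.05 for SLIT2. All of these were called there, and none differed between the groups in the test of the depot by treatment term. Other genes had unequal values that did not pass that test either: HOXA10 was -3.20 in testosterone and -1.64 in control sheep, MEIS1 -1.56 and -0.29, MFAP5 -1.88 and -0.31, and GPR1 -4.04 and -2.58. Their adjusted p for the difference between groups was 0.641, 0.631, 0.641 and 0.781 in edgeR. EYA1, HOXB5 and HOXB7, called in testosterone sheep, were not called in controls, at log2 differences of 1.18, 0.59 and 0.25.

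No gene of 13215 tested (0%) had a depot difference that differed between testosterone and control sheep at an edgeR adjusted p under 0.05; 827 had an unadjusted p under 0.05. DESeq2 called 18 genes for the same term, limma voom with quality weights 3 and edgeR with no filter on low counts 19. PCOLCE2, SEMA3C and ACKR3 were called by all 3 of these alternatives. PCOLCE2, introduced above, had within-sheep log2 ratios of -1.25, -2.10, -2.73 and -2.43 in the testosterone sheep and 0.21, -0.07, -0.98 and 0.30 in control sheep 98, 131, 132 and 201. The groups did not overlap, and the difference between them was -2.07 (SE 0.34, edgeR adjusted p = 0.167). SEMA3C, a secreted semaphorin made by fat precursors, had ratios of -0.93, -0.68, -0.61 and -1.74 in testosterone and 1.19, 0.86, 0.76 and 0.62 in control sheep. It was lower in subcutaneous fat in 4 of 4 testosterone sheep and higher in 4 of 4 control sheep (difference -1.82, SE 0.29, edgeR adjusted p = 0.167). ACKR3, a scavenging chemokine receptor, had 0.10, -1.22, -1.58 and -0.51 against 1.34, 0.55, 1.38 and 1.83 (difference -2.24, SE 0.38, edgeR adjusted p = 0.167). PCOLCE2, SEMA3C and ACKR3 were picked by a small p for this difference, so the separation of their ratios adds no support.

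In the other direction the 3 genes with the smallest unadjusted p were TPM1, a tropomyosin of muscle and stress fibres, HSPA12B, an endothelial heat shock protein, and ITGA8, an integrin of mesenchymal cells. TPM1 had ratios of 0.21, -0.65, 0.07 and -0.03 in testosterone and -1.17, -1.45, -1.39 and -1.37 in control sheep (difference 1.25, SE 0.22, edgeR adjusted p = 0.214). HSPA12B had -0.02, -0.12, 0.59 and 0.63 against -1.42, -1.39, -0.91 and -0.73 (difference 1.43, SE 0.28, edgeR adjusted p = 0.371). ITGA8 had 0.11, -2.08, -0.27 and -0.03 against -2.85, -5.31, -3.20 and -2.56 (difference 3.40, SE 0.68, edgeR adjusted p = 0.383). DESeq2 and edgeR with no filter on low counts called all 3 genes for the depot by treatment term, and limma voom called none of the 3. For each of the 3 genes every control ratio was below every testosterone ratio. The genes were picked by this difference, so the separation of their ratios follows from the choice and adds no support. Smooth muscle and pericyte markers gave 3 higher and 0 lower calls of 13 in testosterone sheep and 0 higher and 6 lower in controls, where 11.5% of all genes tested were lower against 3.54% in testosterone sheep. In testosterone sheep leaving out 1 sheep gave 2, 1, 0 and 1 higher, and none of the list passed the depot by treatment term. Their sum was 1554, 2120, 4432 and 1909 CPM in subcutaneous and 2090, 2547, 4513 and 1182 CPM in perirenal fat of testosterone sheep. The part of smooth muscle content in these differences was not tested.

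**Figure D5:**
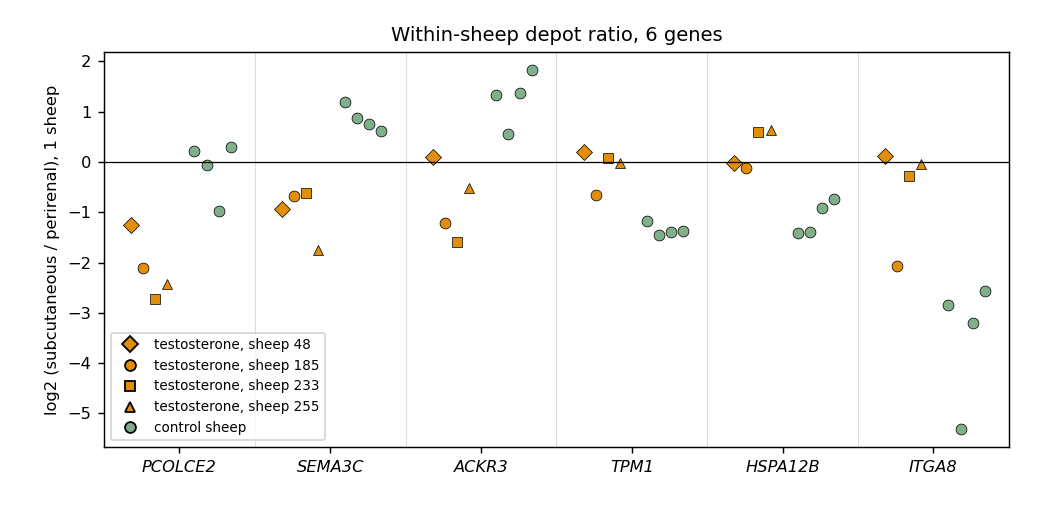
Log2 ratio of subcutaneous to perirenal fat within each sheep (with 0.5 CPM added) for the 3 genes in each direction with the smallest unadjusted p for a difference between testosterone and control sheep. None passed the adjusted threshold in the main edgeR fit, which filters low counts. SEMA3C lies below 0 in the 4 testosterone sheep and above 0 in the 4 control sheep.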

How the data were processed

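The members and gene lists were chosen with earlier results of these data known. RNA with an integrity value of at least 7 went into QuantSeq 3′ libraries, per the labels. The authors deposited 1 matrix of raw counts for 28524 genes in 32 libraries; per the submitters' processing notes, reads were checked (FastQC 0.11.5, MultiQC 0.9) and the tools Trimmomatic 0.36, STAR and, for counting reads per gene, featureCounts 1.6.1 were used, with DESeq2 1.24.0 under R 3.6.3. Neither build nor strand setting is given in the sources used here; overlapping and antisense genes cannot be told apart, and near-identical copies may share reads. Of the listed genes, some have no row of their name and are not analysed here.

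From the deposited counts, edgeR 4.0.16 in R 4.3.3 was run with trimmed-mean (TMM) scaling, filterByExpr with a minimum count of 10, a robust quasi-likelihood fit of sheep plus depot, and a Benjamini-Hochberg adjusted p under 0.05 over all genes tested. Subcutaneous minus perirenal was tested in the 8 testosterone libraries and in the 8 control libraries, and the depot by treatment term in all 16. SE was the log2 fold change over the root of the F statistic. Within-sheep ratios had 0.5 CPM added. The 95% intervals for genes with 1 to 3 counts in a depot are exact binomial (Clopper-Pearson) and cover counting error only, as does the limit of 3 counts used for groups at 0. In 57 lists, up to 3 members in each direction were named by smallest adjusted p; further genes were the 10 in each direction with the largest log2 difference among symbols that were called, went the same way in 4 of 4 pairs, did not overlap and reached a mean of 10 CPM, and, for the depot by treatment term, the 3 in each direction with the smallest p. Members of the position, adipocyte and quality lists were named whatever their result. A few genes that these rules picked are not reported here. DESeq2 1.42.0, limma 3.58.1 (voom with quality weights), other scalings, filters and designs, and leaving out each sheep were alternatives.

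The pairing comes from the sheep number in the labels: deviations of the 2 libraries of a testosterone sheep from their group means had correlations of 0.285, 0.312, 0.499 and 0.109 for sheep 48, 185, 233 and 255. No libraries were identical. No reference genome was used, so sequences and coordinates are not given.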

Additional observations from a re-analysis of the deposited data

Results flagged for a closer look

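In groups of 4 libraries, 144 sets of values given in the text were checked for a library far from the other 3, and 14 had one. The sets share libraries, and where 3 values are 0 any count in the remaining library is flagged. The share flagged therefore cannot be set against a rate given by chance. In testosterone sheep, 3 concern genes at or near 0 CPM in the depot, where the library that stands apart holds 1 or 2 counts: TBX15 in the perirenal library of sheep 233 (0.142 CPM), FOXD1 in the subcutaneous library of sheep 233 (0.15 CPM) and TCF21 in the subcutaneous library of sheep 48 (2.60 CPM).

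The subcutaneous library of sheep 48 stood apart for ARGLU1 (25410 CPM), for LMOD1 (135.2 CPM), for the summed nuclear-retained and splicing transcripts (66820 CPM) and, on the low side, for the summed Schwann cell and neuron markers (236.6 CPM). Without sheep 48 the calls of ARGLU1 and LMOD1 held, at adjusted p = 0.000324 and 0.0155 in edgeR. The cause was not tested.

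In subcutaneous fat the value of JCHAIN, a plasma cell gene, was high in sheep 255, at 300.9 CPM. In perirenal fat, sheep 233 was low for NEB (15.96 CPM), sheep 255 was high for FBLN5 (96.3 CPM), and sheep 48 was at 0 CPM for CXCL14. In control sheep, TBX15 was high in the subcutaneous library of sheep 132 (41.8 CPM) and stood apart at 0.148 CPM in the perirenal library of sheep 98, and IRX1 stood apart at 0.127 CPM in the perirenal library of sheep 132.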

How the results depend on the processing

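In the testosterone sheep the count of 938 called genes was 942 with RLE size factors, 2076 with no filter on low counts, 607 with a minimum count of 50, 1423 with DESeq2, 1492 with limma voom and quality weights, and 299 when all 16 testosterone libraries of 4 depots were fitted together. With no block for the sheep, so without the pairing, 144 genes were called, and 171 when the subcutaneous library of sheep 48 was also left out. Leaving out 1 sheep gave 321 to 590 calls in testosterone sheep and 1195 to 2344 in control sheep, where the pairing changed the count by less than 1.5 times. The depot by treatment term, with 0 calls, gave 19 with no filter, 18 with DESeq2, 3 with limma voom and 0 to 1 when 1 sheep was left out; the 1 call, ACTA2, came without testosterone sheep 185. Why these counts moved was not tested; the fits without a sheep have fewer samples, and the stricter filter tests fewer genes. None of the 145 called genes that the naming rule picked changed direction under any of these settings, which reuse the libraries that gave the calls. All 145 were called by DESeq2 and with no filter, 144 by limma voom, 143 with RLE, 106 of the 127 tested with a minimum count of 50, 41 with no block, 66 with all 16 libraries, and 99, 66, 67 and 63 without sheep 48, 185, 233 and 255. With 4 sheep, and 784135 counts in the subcutaneous library of sheep 48, where 1 count is 1.30 CPM, genes of a few CPM are measured least precisely.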

Other observations

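Hypoxia and angiogenesis genes had 1 higher call, the glucose carrier SLC2A1 (1.13 on the log2 scale), and 1 lower, VEGFD, of 23 tested; leaving out sheep 48, 185, 233 or 255, in that order, gave 1, 0, 0 and 0 higher and 1 lower each time. Prostaglandin and purine genes had 1 higher call, NT5E, the ectonucleotidase that makes adenosine (1.45), and 3 lower of 23, the cyclooxygenases PTGS1 (-1.11) and PTGS2 (-1.11) and the prostaglandin D synthase PTGDS (-0.87). For this list leaving out 1 sheep gave 1, 0, 0 and 0 higher and 4, 0, 0 and 0 lower. Among 9 tested imprinted genes, IGF2 was higher and PEG3 lower (-1.28); leaving out 1 sheep gave 0 higher each time and 1, 0, 1 and 1 lower. Among 16 endothelial markers, ENG was higher (1.239). It lost its call in each of the 4 fits without a sheep (edgeR adjusted p up to 0.0683 without sheep 185). In smooth muscle and pericyte markers the calls were LMOD1, NOTCH3 (1.07) and CSPG4 (0.99). RYR2, a calcium release channel, was the 1 call of 1 tested cardiac marker, at a log2 difference of 2.13; it was lost without sheep 48 (edgeR adjusted p = 0.0687).

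Few members of the remaining metabolic lists were called. Oxidative phosphorylation subunits had a median log2 difference of -0.44 over 24 tested, with 1 called lower; in controls the median was -0.45 and 11 were lower, against 11.5% of all genes tested in controls and 3.54% in testosterone sheep. Adipogenic transcription factors had 1 higher call of 15, RXRA. Cholesterol genes had 1 lower call of 16. Immediate early genes had 1 lower call of 19, JUNB (-0.88). None of these 4 calls held without sheep 48. No lymphatic marker was called of 7 tested, and none of the B and plasma cell, red cell or epidermal markers. However, 1 lymphatic marker was called without sheep 233 and 1 epidermal marker without sheep 48. The lymphatic markers had a median log2 difference of -0.727. In controls their median was -1.51 and 2 of 7 were lower, against 11.5% of all genes tested there. Among kidney and adrenal markers none reached the count filter, although 1 kidney marker was called higher without sheep 48 and 1 without sheep 185. JCHAIN, the joining chain of plasma cell antibodies, picked after its values were seen, was 0, 8.62, 26.2 and 301 CPM in subcutaneous and 17.1, 20.4, 26.1 and 38.1 CPM in perirenal fat. Its highest value came from the subcutaneous library of sheep 255, and the depots overlapped.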
